A study of Mus musculus with 2 samples.

Results

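The 9 genes described here belong to calcium/calmodulin signalling and were measured in mouse hippocampus: the 4 genes of Ca2+/calmodulin-dependent protein kinase II (CaMKII), Camk2a, Camk2b, Camk2d and Camk2g, the kinase gene Camk4 with its upstream kinase gene Camkk2, the calmodulin gene Calm2, and the calcineurin catalytic subunit genes Ppp3ca and Ppp3cb. They were chosen by name, as all probes that the platform annotation gives to one of these symbols, which makes 9 of the 16446 annotated genes and 11 probes. Calm2 has 3 probes and the other 8 genes have 1 probe each. All 11 probes were above background, meaning the blank spots, in every channel, so no member was lost to the filter on dim probes. That filter kept 13630 named genes. RNA of 3 kinds of mice was compared: AtrxdE2 mice that received TMPyP4, a cationic porphyrin known as a ligand of G-quadruplex DNA, AtrxdE2 mice without that treatment, and wild-type (WT) mice. AtrxdE2, also written AtrxΔE2, is a mutant allele of Atrx, which encodes a chromatin remodeller. The TMPyP4 dose was 30 mg/kg into the peritoneum, repeated 2 times weekly over postnatal days 30 to 90, and each pool held 5 mice. Each mutant pool was labelled with Cy3 and hybridised with WT in Cy5 on a two-colour array of its own, so the study has 2 arrays. The labels give no age at sampling, no sex and no vehicle for the other mice.

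Calcium that enters a neuron through NMDA receptors and voltage-gated channels binds calmodulin, and the loaded calmodulin turns on CaMKII, CaMKK2 and calcineurin. CaMKII is a ring of alpha, beta, gamma and delta subunits that keeps part of its activity by autophosphorylation and is known in hippocampus for its part in long-term potentiation and memory. CaMKK2 phosphorylates CaMKI, CaMKIV and AMPK, and CaMKIV carries the signal to CREB in the nucleus. Calcineurin, a phosphatase made of a catalytic A subunit, a regulatory B subunit and calmodulin, opposes many of these kinase steps and is known for its part in long-term depression and for dephosphorylating NFAT. Because TMPyP4 binds stacked guanines, the bases before the start sites of these genes are shown first.

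RefSeq promoter sequences of build GRCm38.p6 could be printed for 4 of the 9 genes. They are the 250 bases before the annotated start, at chr11:6065749-6065998 on the minus strand for Camk2b, chr3:126596701-126596950 on the plus strand for Camk2d, chr5:122779411-122779660 on the minus strand for Camkk2, and chr14:20546574-20546823 on the minus strand for Ppp3cb. All are written 5′ to 3′ along the gene. Capitals mark the guanine-run motif, defined as at least 4 runs of GGG with 1 to 7 letters N between neighbouring runs, searched on both strands, so that on the opposite strand it reads as runs of CCC.
Camk2b: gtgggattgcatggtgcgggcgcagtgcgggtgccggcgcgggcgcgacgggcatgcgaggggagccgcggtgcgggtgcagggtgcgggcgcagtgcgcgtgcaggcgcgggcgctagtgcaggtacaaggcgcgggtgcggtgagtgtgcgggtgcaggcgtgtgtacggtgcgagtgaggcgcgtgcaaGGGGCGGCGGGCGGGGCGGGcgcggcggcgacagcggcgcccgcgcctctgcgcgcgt
Camk2d: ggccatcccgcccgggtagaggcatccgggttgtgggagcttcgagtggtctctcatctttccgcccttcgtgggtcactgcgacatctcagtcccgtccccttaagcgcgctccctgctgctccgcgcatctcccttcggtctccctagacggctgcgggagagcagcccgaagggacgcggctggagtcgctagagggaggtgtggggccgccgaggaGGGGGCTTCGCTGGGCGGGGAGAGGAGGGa
Camkk2: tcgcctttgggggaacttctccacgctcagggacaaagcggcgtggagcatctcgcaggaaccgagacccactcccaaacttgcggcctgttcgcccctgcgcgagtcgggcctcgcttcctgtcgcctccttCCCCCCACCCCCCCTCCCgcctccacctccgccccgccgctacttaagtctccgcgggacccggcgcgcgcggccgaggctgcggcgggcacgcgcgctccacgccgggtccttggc
Ppp3cb: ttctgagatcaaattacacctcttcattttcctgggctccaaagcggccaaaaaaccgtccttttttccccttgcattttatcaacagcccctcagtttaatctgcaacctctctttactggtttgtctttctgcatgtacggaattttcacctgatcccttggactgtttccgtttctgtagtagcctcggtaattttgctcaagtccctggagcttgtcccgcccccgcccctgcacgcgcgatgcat
The motif was found on the gene strand of Camk2b, over 20 bases from 58 to 39 bases before the start. In Camk2d it lay on the gene strand over 29 bases, from 30 to 2 bases before the start. In Camkk2 it lay on the opposite strand over 18 bases, from 117 to 100 bases before the start. Ppp3cb had no match in this window. Across all 32851 RefSeq promoters of the same length, 16.7% held the motif. The windows with a match were rich in G and C, with 78.4% in Camk2b, 68.4% in Camk2d and 72.4% in Camkk2, against 48.4% in Ppp3cb and a median of 52.4% over all promoters. Of the 3811 promoters with at least 68.4% G and C, 50.7% held the motif. A match describes the letters only, and binding was not measured.

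With 1 pool per group and 1 array per comparison there were no replicates, so no p-value is given, and precision is limited by there being 2 arrays. The median probe lay above the blank spots by 79.1 units for AtrxdE2+TMPyP4 and 36.0 for WT on one array, and 64.6 for AtrxdE2 and 42.2 for WT on the other, so Cy3 was brighter on both. Ratios are therefore given as normalized log2 ratios of the mutant pool over WT. Atrx itself had log2 ratios of -0.36 in AtrxdE2+TMPyP4 and -0.68 in AtrxdE2. Its probe was dim, with signals above the blank spots of 71.5 in AtrxdE2+TMPyP4 and 54.6 in WT. On the other array they were 19.1 in AtrxdE2 and 47.4 in WT. An offset is added to each signal before the ratio is taken, which shrinks the ratios of dim probes. The size of the Atrx ratios is therefore not a measure of how much lower its RNA was. Where its probe lies relative to the altered part of the gene was not analysed here. Markers of hippocampal and cortical excitatory neurons were above background for 14 of the 15 genes on the array, Fibcd1 being the exception. In bulk hippocampus fewer cells of a type and less RNA per cell cannot be told apart.

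Signals are given in arbitrary scanner units above the mean of the blank spots, and each mutant signal stands beside WT of the same array. Local background around the spots is not taken off. On the AtrxdE2+TMPyP4 array its reading was 2363 in Cy3 and 679.3 in Cy5 for Camkk2, and 2139 and 745.1 for Camk2g. It was 3508 and 906.8 for Ppp3cb, and 1978 and 481.9 for Camk2b. For Camk4, at 168.5 and 77.6, it was larger than the signal above blank. For Camk2d, at 542.7 in Cy3 and 240.8 in Cy5, it was about as large as the signals of 545.9 and 234.5. As there is no replicate error, a pair of yardsticks is given. They are the SD over the 500 named genes nearest in signal, called the neighbour SD, and the difference of the WT channel between the arrays. The neighbour SD is a spread over different genes, so it mixes differences between genes with technical error. Neither yardstick measures variation between animals. Repeated positive control spots, 24 of each control per array, had SDs of the log2 ratio from 0.087 to 0.113.

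Camk2a encodes the alpha subunit, the main CaMKII subunit of forebrain excitatory neurons, and its mRNA is carried into dendrites. Its probe (M300004241) had 2618 in AtrxdE2+TMPyP4 and 1117 in WT, and 5312 in AtrxdE2 and 2848 in WT. Both channels were dimmer on the AtrxdE2+TMPyP4 array, WT included. After normalization the log2 ratio over WT was 0.011 in AtrxdE2+TMPyP4 (neighbour SD 0.25) and 0.30 in AtrxdE2 (neighbour SD 0.25), a fold of 1.01 and 1.23. The AtrxdE2 value was just past 1.2-fold (0.263 on the log2 scale), and the difference of both ratios was -0.29. It was below 1.2-fold with the local background (0.21), in the authors' deposited table (0.25) and with loess per print block (0.22). In AtrxdE2+TMPyP4 the ratio was 1.95 with the local background and 0.45 with median centring, so which pool passed 1.2-fold depended on these steps.

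Camk2b encodes the beta subunit, which binds F-actin. Its probe (M200001998) had 6417 in AtrxdE2+TMPyP4 and 3850 in WT, and 6651 in AtrxdE2 and 3996 in WT. WT signal was close to equal on both arrays. The log2 ratio was -0.49 in AtrxdE2+TMPyP4 (neighbour SD 0.26) and 0.15 in AtrxdE2 (neighbour SD 0.25). With a fold of 0.711 over WT, Camk2b was the lowest of the 9 genes in AtrxdE2+TMPyP4. Its difference between the ratios, -0.64 with a neighbour SD of 0.31, was the largest of the 9.

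Camk2g and Camk2d encode the gamma and delta subunits, which are widely expressed outside neurons too. Camk2g (M300002968) had 3143 in AtrxdE2+TMPyP4 and 1014 in WT, and 2824 in AtrxdE2 and 1699 in WT. Its log2 ratio was 0.40 in AtrxdE2+TMPyP4 (fold 1.32, neighbour SD 0.23) and 0.11 in AtrxdE2 (neighbour SD 0.25). The gamma gene therefore lay on the other side of 0 from Camk2b in AtrxdE2+TMPyP4. Camk2d (M300005877) had 545.9 in AtrxdE2+TMPyP4 and 234.5 in WT, and 486.2 in AtrxdE2 and 295.8 in WT. Its log2 ratios of 0.052 and 0.061 were inside the neighbour SDs of 0.20 and 0.24, and with the local background that of AtrxdE2 was 0.49.

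**Figure D1:**
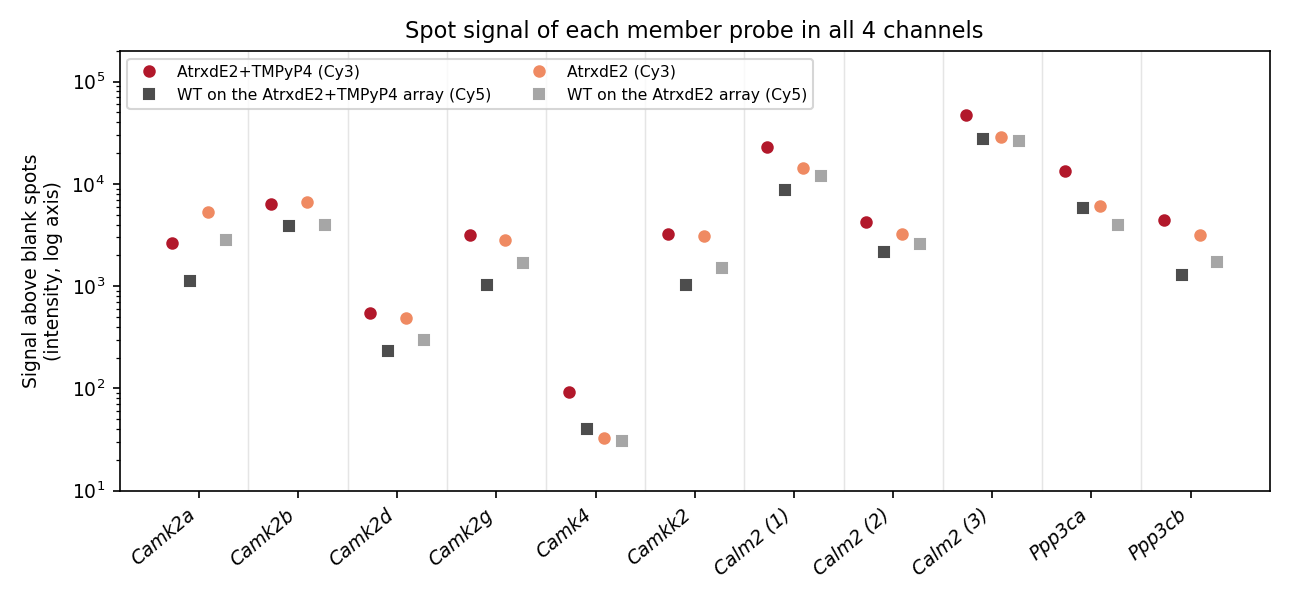
Spot signal above the blank spots (intensity, log axis) of the 11 probes, with AtrxdE2+TMPyP4 and its WT channel left of AtrxdE2 and its WT channel, 1 spot per point. Camk2a is dimmer in both channels of the AtrxdE2+TMPyP4 array (2618 and 1117) than in those of the AtrxdE2 array (5312 and 2848), and Ppp3ca is brighter (13261 and 5781, against 6074 and 3944).

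Camkk2, the gene of the kinase that switches on CaMKI, CaMKIV and AMPK, was past 1.2-fold on both arrays. Its probe (M200015884) had 3253 in AtrxdE2+TMPyP4 and 1030 in WT, and 3108 in AtrxdE2 and 1499 in WT. The log2 ratio was 0.43 in AtrxdE2+TMPyP4 (fold 1.34, neighbour SD 0.23) and 0.42 in AtrxdE2 (fold 1.34, neighbour SD 0.25), so both pools lay above WT by nearly the same amount. Both ratios were taken over WT and share that side of the comparison. Camk4 was the dimmest member, with a probe (M200001126) at 91.6 in AtrxdE2+TMPyP4 and 40.01 in WT, and at 32.4 in AtrxdE2 and 30.4 in WT. Its lowest channel was 9.81 SD above the blank spots. The log2 ratios were 0.057 in AtrxdE2+TMPyP4 (neighbour SD 0.18) and -0.19 in AtrxdE2 (neighbour SD 0.15). In the authors' deposited table, which follows the plain ratio with no offset, Camk4 had 0.02 and -0.56.

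Calm2 encodes calmodulin, the calcium sensor of the pathway. In AtrxdE2 its 3 probes lay together: log2 ratios were -0.29 for probe 1 (M200007524), -0.29 for probe 2 (M300001785) and -0.36 for probe 3 (M300010379), with a mean of -0.31 (fold 0.805, neighbour SD 0.26). In AtrxdE2+TMPyP4 the same probes were apart, at 0.14, -0.27 and -0.49, with a mean of -0.21 (neighbour SD 0.28). The 3 probes therefore gave 1 direction in AtrxdE2 and disagreed in sign in AtrxdE2+TMPyP4. Probe 1 had signals of 22788 in AtrxdE2+TMPyP4 and 8627 in WT, and of 14163 in AtrxdE2 and 11835 in WT. For probe 2 they were 4193 in AtrxdE2+TMPyP4 and 2174 in WT, and 3209 in AtrxdE2 and 2576 in WT. Probe 3, the brightest, had 47421 in AtrxdE2+TMPyP4 and 27487 in WT, and 28990 in AtrxdE2 and 26154 in WT.

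Ppp3ca and Ppp3cb encode the alpha and beta forms of the calcineurin catalytic subunit, the first of them the main form in brain. Ppp3cb (M300002963) had 4385 in AtrxdE2+TMPyP4 and 1289 in WT, and 3173 in AtrxdE2 and 1719 in WT. Its log2 ratio was 0.53 in AtrxdE2+TMPyP4 (fold 1.44, neighbour SD 0.24) and 0.26 in AtrxdE2 (fold 1.196, neighbour SD 0.25), the first being the highest value of the 9 genes. The AtrxdE2 value fell just short of 1.2-fold, at 0.258 on the log2 scale. Ppp3ca (M300005973) had 13261 in AtrxdE2+TMPyP4 and 5781 in WT, and 6074 in AtrxdE2 and 3944 in WT. Its log2 ratios were -0.049 in AtrxdE2+TMPyP4 (neighbour SD 0.27) and 0.034 in AtrxdE2 (neighbour SD 0.25). The signal of Ppp3ca was higher on the AtrxdE2+TMPyP4 array in both channels alike, and its ratios stayed near 0.

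**Figure D2:**
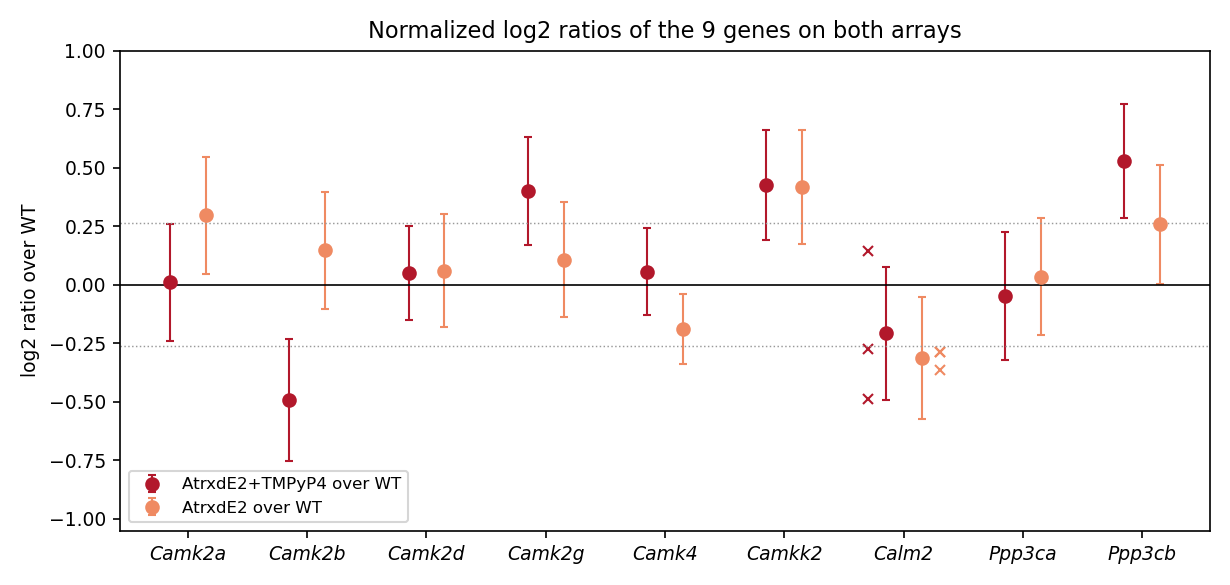
Normalized log2 ratio over WT of the 9 genes in AtrxdE2+TMPyP4 (left of each pair) and AtrxdE2. Bars are the SD of the 500 named genes nearest in signal, crosses are the single Calm2 probes, and dotted lines mark 1.2-fold. Ppp3cb (0.53), Camkk2 (0.43) and Camk2g (0.40) lie above and Camk2b (-0.49) below the dotted lines in AtrxdE2+TMPyP4.

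By the fixed rule of 1.2-fold, 3 of the 9 genes were higher in AtrxdE2+TMPyP4 than in WT (Ppp3cb, Camkk2 and Camk2g), against 8.74% of all named genes, and 1 was lower (Camk2b), against 5.17%. In AtrxdE2, 2 were higher than WT (Camkk2 and Camk2a), against 7.27%, and 1 was lower (Calm2), against 8.08%. For the difference of AtrxdE2+TMPyP4 and AtrxdE2, 2 genes were higher (Camk2g and Ppp3cb), against 14.2%, and 2 were lower (Camk2b and Camk2a), against 9.68%. None of the 9 reached 2-fold in any of these comparisons, where 0.161% of named genes were higher and 0.0293% were lower for AtrxdE2+TMPyP4 over WT, 0.022% and 0.00734% in AtrxdE2, and 0.213% and 0.103% in the difference. Above 0 were 6 of the 9 in AtrxdE2+TMPyP4 (52.8% of named genes), 7 in AtrxdE2 (49.3%) and 5 for the difference (52.7%). The median log2 ratio of the 9 genes was 0.052 in AtrxdE2+TMPyP4 (0.0095 over all named genes) and 0.11 in AtrxdE2 (-0.0028 over all), and that of the difference 0.0084 (0.015 over all). The rule was fixed with these ratios already known, and with 9 genes 1 gene moves a count by much.

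These counts depend on how each array was centred. With the median of all measured probes set to 0 in place of loess, 7 genes were higher and 0 lower in AtrxdE2+TMPyP4, against 29.2% and 22.8% of all named genes, and 5 higher and 1 lower in AtrxdE2, against 17.2% and 6.17%. The lower gene was then Camk4 (-0.27) and no longer Calm2 (-0.18), and Camk2b (-0.016) was no longer past 1.2-fold. Bright genes as a whole sat above 0 under that centring: the 500 genes nearest to Camk2b had medians of 0.46 and 0.17. Relative to those medians Camk2b was at -0.48 in AtrxdE2+TMPyP4 and 0.15 in AtrxdE2, close to its loess values. Ppp3cb was likewise at 0.53 and 0.26 relative to its neighbours, and Camkk2 at 0.41 and 0.42. Taking off the median of genes near in signal removes a trend with signal, as loess does. The closeness to the loess values follows from that and is no separate check. By the ratios of the authors' deposited table, 3 genes were higher and 1 lower in AtrxdE2+TMPyP4, against 19.5% and 17.1% of all named genes, and 1 higher and 2 lower in AtrxdE2, against 16.9% and 21.6%.

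**Figure D3:**
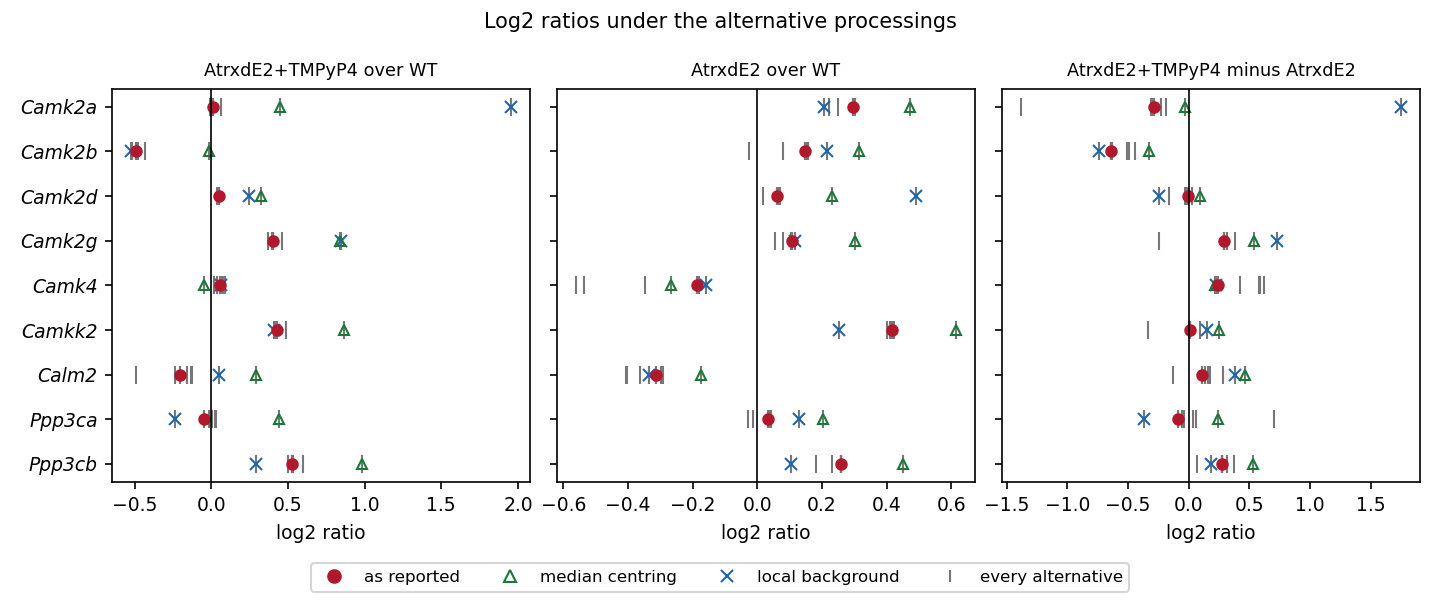
Log2 ratios of the 9 genes as reported (circles) and under the alternatives (bars), with median centring and local background marked, for AtrxdE2+TMPyP4 over WT, AtrxdE2 over WT and their difference. The horizontal scales differ between panels. Camk2a over WT in AtrxdE2+TMPyP4 is 0.011 as reported and 1.95 with the local background, and Camk2b is -0.49 as reported and -0.016 with median centring.

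The WT channel was measured on both arrays, and whether it was the same pool is not stated in the sources used here. After quantile normalization of the Cy5 channels, WT Camk2a was lower by 1.07 log2 units on the AtrxdE2+TMPyP4 array than on the AtrxdE2 array (log2 difference -1.07, neighbour SD 0.39). Camk2a was 1 of the 76 named genes (0.558%) whose WT signal differed at least 2-fold. WT Ppp3ca differed by 0.78 (neighbour SD 0.39), WT Camk2g by -0.50 and WT Camkk2 by -0.30. In all, 4 of the 9 genes differed at least 1.2-fold between the WT channels, against 25.6% of all named genes. The Cy3 channels set against each other in the same way gave -1.38 for Camk2a, 0.71 for Ppp3ca, 0.59 for Camk4 and -0.44 for Camk2b. They gave -0.33 for Camkk2, -0.24 for Camk2g, 0.18 for Calm2 and -0.16 for Camk2d. For Ppp3cb the Cy3 difference was 0.067 and the WT difference -0.20. For Camk2a and Ppp3ca most of the Cy3 difference between AtrxdE2+TMPyP4 and AtrxdE2 was present in WT too. Camk2b was the member with a Cy3 difference below 0 and a WT difference above 0. Camk2g and Ppp3ca had opposite signs by the other route, with 0.29 and -0.083 as differences of ratios, and Camkk2 had 0.0084 there. Ppp3cb had 0.27 as a difference of ratios. Thus neither Camk2g nor Ppp3cb, the genes called higher for the difference of ratios, was at least 1.2-fold higher by Cy3. Of all named genes 21.6% were.

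**Figure D4:**
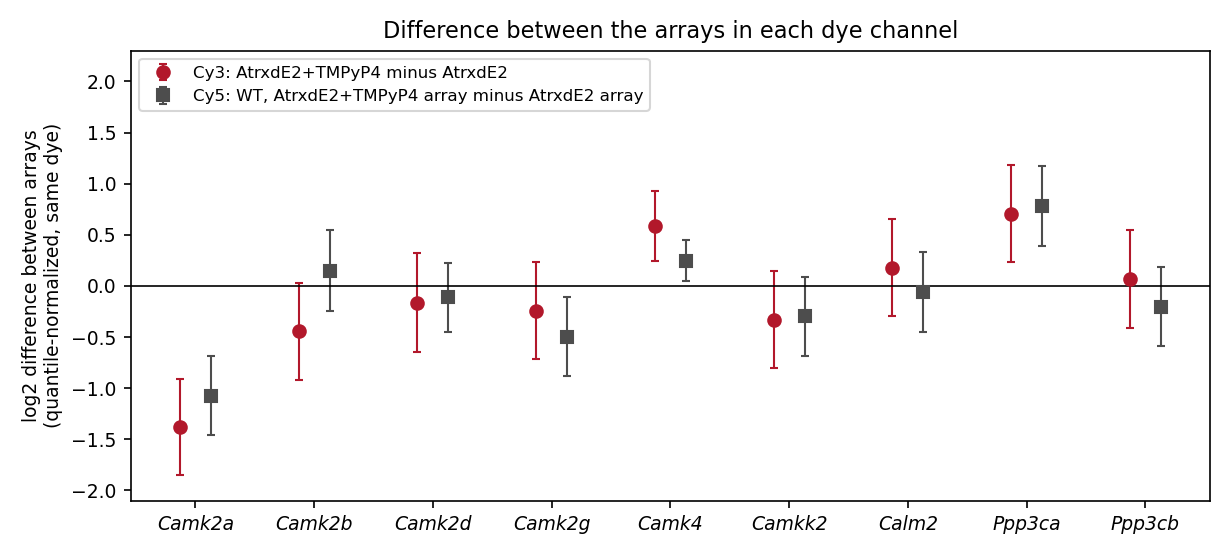
Log2 difference between the arrays after quantile normalization within each dye, for Cy3 (AtrxdE2+TMPyP4 minus AtrxdE2) and for Cy5 (WT on the AtrxdE2+TMPyP4 array minus WT on the AtrxdE2 array). Bars are the SD of the 500 named genes nearest in signal. Camk2a lies near -1 in both dyes (-1.38 and -1.07) and Ppp3ca near 0.7 (0.71 and 0.78).

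The other genes of the pathway were taken as 5 lists, of which 89 genes are on the array and 84 were measured. In AtrxdE2+TMPyP4, 5 of the 84 were at least 1.2-fold higher and 10 lower than WT, against 8.74% and 5.17% of all named genes, with a median of -0.022. In AtrxdE2, 8 were higher and 4 lower, against 7.27% and 8.08%, with a median of 0.016. For the difference 5 were higher and 20 lower, against 14.2% and 9.68%, with a median of -0.045. The counts of each list below are read against the same shares. Among the genes named below, Camta2, Strn, Pskh1, Nfatc4, Grin2b, Mtap2, Atp2b3 and Atp2b4 were dim, and the offset shrinks such ratios. None of the 84 reached 2-fold in either direction in any of the comparisons.

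Among the other CaM kinases and their regulators, 2 of 16 were higher and 2 lower in AtrxdE2+TMPyP4, and 1 higher and 1 lower in AtrxdE2. Camkk1, the gene of the other CaM kinase kinase, had log2 ratios of 0.28 in AtrxdE2+TMPyP4 and 0.30 in AtrxdE2, near those of Camkk2. Its substrates Camk1 and Camk1g had -0.17 and 0.27 in AtrxdE2+TMPyP4, and -0.28 and 0.035 in AtrxdE2. The lowest in AtrxdE2+TMPyP4 were Pnck, a CaM kinase I family gene, at -0.66, and Camkv, which encodes a kinase-like vesicle protein, at -0.61, against 0.0085 and -0.052 in AtrxdE2. Camkv had signals of 2428 in AtrxdE2+TMPyP4 and 1616 in WT, and of 2800 in AtrxdE2 and 1890 in WT, and Pnck 1147 and 807.9, and 1292 and 820.7. Camkv and Pnck are named here because they were the lowest of this list in AtrxdE2+TMPyP4. Camk2b was likewise the lowest of the genes chosen by name. That all of them had low ratios there follows from this choice. In AtrxdE2 their ratios were near 0 or slightly above. Whether these genes change together was not tested. The CaMKII inhibitor genes Camk2n1 and Camk2n2 had -0.18 and 0.065 in AtrxdE2+TMPyP4, and 0.10 and 0.19 in AtrxdE2. Pskh1 was at 0.25 and the death-associated kinase gene Dapk1 at -0.24 in AtrxdE2, and Dapk1 had the highest difference of this list, 0.33.

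Of 13 measured genes for calmodulin-binding proteins, 1 was higher (Itpka) and 1 lower (Marcksl1) in AtrxdE2+TMPyP4, and none passed 1.2-fold in AtrxdE2. Itpka, whose product is a calmodulin-activated inositol kinase of dendritic spines, had 0.30 in AtrxdE2+TMPyP4 and 0.14 in AtrxdE2. Marcksl1 had -0.39 and 0.074, and the growth cone gene Gap43 -0.19 and 0.16. Nrgn, which encodes the postsynaptic calmodulin-binding protein neurogranin, had -0.038 in AtrxdE2+TMPyP4 and -0.01 in AtrxdE2. Its WT signal was 2015 on the AtrxdE2+TMPyP4 array and 5831 on the AtrxdE2 array, a difference of -1.29 after quantile normalization. Nrgn, like Camk2a, had a dimmer WT channel on the AtrxdE2+TMPyP4 array and a ratio near 0 there. This was not particular to them. The WT difference was -1.22 for Syn1 and -1.11 for Grin1, with ratios of 0.024 and 0.065 in AtrxdE2+TMPyP4. For Dnm1 it was -1.85, with a ratio of 0.23. At the ends of this list in AtrxdE2 were Iqgap1 and Strn3, both at 0.21, and Camta2 at -0.14 and Strn at -0.027. Camsap1 had 0.20 in AtrxdE2+TMPyP4 and a difference of 0.18.

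In the calcineurin list 0 of 21 genes were higher and 2 lower in AtrxdE2+TMPyP4, and 0 higher and 1 lower in AtrxdE2. Both low genes encode immunophilins, the proteins through which cyclosporin and FK506 inhibit calcineurin. Ppia (cyclophilin A) had -0.88 in AtrxdE2+TMPyP4 and -0.69 in AtrxdE2, and Fkbp1a (FKBP12) -0.47 and -0.16. The catalytic gene Ppp3cc had -0.069 and 0.015, so of the 3 catalytic subunit genes Ppp3cb alone passed 1.2-fold in AtrxdE2+TMPyP4, and none did in AtrxdE2. The calcineurin regulator gene Dscr1 (now Rcan1) had -0.11 and 0.12, and Dscr1l1 (now Rcan2) 0.13 and 0.14. Dnm1, which encodes the endocytic calcineurin target dynamin, had 0.23 in AtrxdE2+TMPyP4 and Ppp1r1a 0.15, the highest of the list. The CREB coactivator genes Crtc2 and Crtc3 led it in AtrxdE2 with 0.22 and 0.17, and Crtc3 had a difference of -0.29. Ppp1r1a and Nfatc4 had the highest differences, both 0.17.

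Among 24 genes for CaMKII substrates and postsynaptic partners, 1 was higher and 4 lower in AtrxdE2+TMPyP4, and 6 higher and 1 lower in AtrxdE2. Gria1, the AMPA receptor subunit gene whose product CaMKII phosphorylates, had -0.55 in AtrxdE2+TMPyP4 and 0.31 in AtrxdE2. Its signals were 4763 in AtrxdE2+TMPyP4 and 2993 in WT, and 5716 in AtrxdE2 and 3047 in WT. Rasgrf1, which encodes a calmodulin-activated Ras exchange factor, had -0.12 and 0.65, and Gria2 0.10 and 0.50. The difference of the ratios was -0.86 for Gria1 and -0.77 for Rasgrf1, the lowest of the 84 genes. Homer1, a postsynaptic scaffold gene, ran the other way with 0.36 in AtrxdE2+TMPyP4, -0.19 in AtrxdE2 and a difference of 0.55. Grin2b had a difference of 0.43 at dim signals, 103.6 in AtrxdE2+TMPyP4 and 35.1 in WT, and 48.0 in AtrxdE2 and 42.7 in WT. The synapsin gene Syn2 had -0.52 in AtrxdE2+TMPyP4, and Vim 0.25. Syn1 had -0.38 and Mtap2 (now Map2) -0.24 in AtrxdE2.

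Of 10 measured genes for calmodulin-regulated enzymes and pumps, 1 was higher and 1 lower in each mutant pool. Pde1b, which encodes a calmodulin-activated phosphodiesterase, had -0.41 in AtrxdE2+TMPyP4 and -0.45 in AtrxdE2. The calcium pump gene Atp2b3 had 0.28 and -0.18, the highest difference of this list at 0.46, while Atp2b2 had 0.22 in AtrxdE2. Signals of Atp2b3 were dim, at 69.4 in AtrxdE2+TMPyP4 and 19.2 in WT, and 40.4 in AtrxdE2 and 36.2 in WT. Adcy8 had 0.26 in AtrxdE2+TMPyP4 and a difference of 0.079, and Pde1a -0.25 in AtrxdE2+TMPyP4. Nos3 had 0.35 in AtrxdE2 and the lowest difference at -0.34, followed by Atp2b4 at -0.17.

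**Figure D5:**
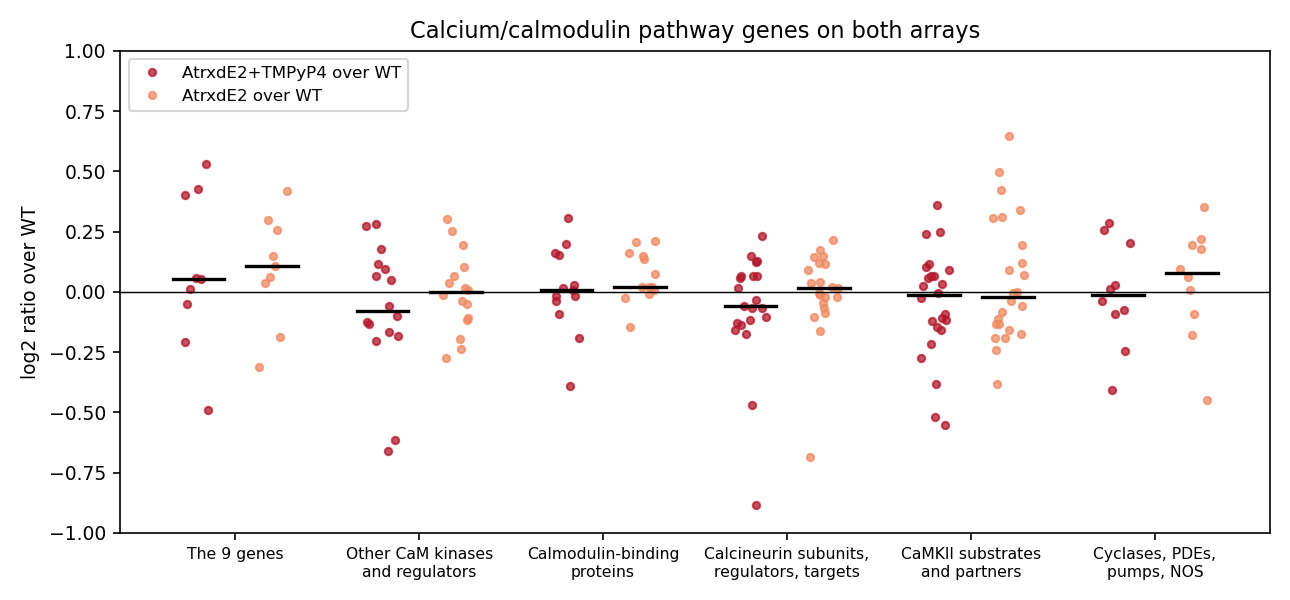
Normalized log2 ratio over WT of every measured gene of the 9 and of the 5 pathway lists, with AtrxdE2+TMPyP4 left of AtrxdE2 and black bars at the medians. Horizontal scatter within a column has no meaning. The list medians stay between -0.080 and 0.078, and the 9 genes have medians of 0.052 and 0.11.

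Markers of some other cells differed between these pools. Of 11 measured choroid plexus genes, 8 were at least 2-fold higher in AtrxdE2+TMPyP4 than in WT, with a summed signal of 75000 against 2495, and 1 was in AtrxdE2, with 4792 against 2817. Ttr (60791 in AtrxdE2+TMPyP4 and 219.4 in WT) and Enpp2 (12205 and 2051) carried most of the sums on that array, and the other genes were at most 329.0 each. Aqp1, Cldn2, F5 and Lmx1a were not above background in every channel. Striatal markers had a median of -0.45 in AtrxdE2+TMPyP4, with 11 of 13 below 0 and summed signals of 8219 in the mutant and 5320 in WT. In AtrxdE2 their median was -0.071, with 9 of 13 below 0 and sums of 8875 and 8250. The summed signals are not corrected for dye. Over all named genes they were 10864954 in AtrxdE2+TMPyP4 and 4767573 in WT, and 8281403 in AtrxdE2 and 5573770 in WT. Oligodendrocyte markers had medians of -0.28 in AtrxdE2+TMPyP4 and -0.48 in AtrxdE2, with 11 and 12 of 13 below 0. Enpp2 is in both this list and the choroid plexus list, and had 1.32 in AtrxdE2+TMPyP4. Excitatory neuron markers had -0.087 and -0.023, with 9 of 14 below 0 in both, and 6 of the 14 were at least 1.2-fold lower in AtrxdE2+TMPyP4. Of all named genes, 52.8% were above 0 in AtrxdE2+TMPyP4 and 49.3% in AtrxdE2. At least 1.2-fold lower in AtrxdE2+TMPyP4 were 5.17%. At least 2-fold higher were 0.161% in AtrxdE2+TMPyP4 and 0.022% in AtrxdE2. Pan-neuronal markers had -0.022 and -0.011, from Uchl1 at -0.58 to Nefh at 0.97 in AtrxdE2+TMPyP4. Medians in AtrxdE2+TMPyP4 and AtrxdE2 were 0.11 and 0.0036 for astrocyte markers and -0.11 and -0.061 for microglia markers. For interneuron markers they were -0.037 and -0.014. The part of these markers in the ratios of the 9 genes was not tested.

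For each CaMKII gene the named genes closest in both ratios over WT were looked up, by the distance between the pairs of log2 ratios over the 2 arrays. They were Cdc42se2 and Vcl for Camk2a (distances 0.0022 and 0.003), Ephb6 and Exdl2 (now Exd2) for Camk2b (0.018 and 0.033), Wbp4 and Gpr132 for Camk2d (0.0024 and 0.0031), and Mrps6 and Pcdh11x for Camk2g (0.012 and 0.014). Within a distance of 0.1 lay 385 genes for Camk2a, 30 for Camk2b, 2473 for Camk2d and 217 for Camk2g, so 2 ratios set few genes apart, and Camk2b had the fewest genes like it.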

How the data were processed

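The deposited scanner tables give spot and local background medians for Cy5 and Cy3 as intensity, and per the file headers readings at several gains were merged. No label or header names the scanner or its software. The authors' value table holds normalized log2 ratios of mutant over WT, per the labels. Its background and centring steps are not stated: its values followed log2 of Cy3 over Cy5 above the blank mean, less a constant (r = 0.99997 on both arrays), which settles the direction. Each array has 27456 spots, 2736 of them blank, and 23473 probes, of which 16631 have 1 gene symbol, 0 several and 6842 none. Symbols were brought up to date through RefSeq (GRCm38.p6) for 12501 current and 3883 older names, and 62 matched none.

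Background was corrected with normexp (limma 3.58.1, R 4.3.3, offset 50) on the mean of the blank spots, trimmed by a share of 0.05 at each end, followed by loess within each array, with control spots at weight 0. Probes above the blank mean plus 2 SD in every channel of both arrays were kept. Probes of a gene were averaged, and the treatment difference is that of the ratios. Known log2 ratios were put into the real Cy3 signals of randomly drawn measured probes, and normexp and loess were run again. The outcome is not reported here. Without a dye swap, an effect of dye and one of group cannot be told apart. Named were all 9 genes, a set of direct partners, and the 2 highest and 2 lowest genes of each list and comparison. The genes, lists and rules were chosen with earlier results of these data known. Alternatives changed the background, offset, centring, filter, probe choice and source of the ratios.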

Additional observations from a re-analysis of the deposited data

Results flagged for a closer look

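Camk2b had log2 ratios over WT of opposite sign, -0.49 in AtrxdE2+TMPyP4 and 0.15 in AtrxdE2, a difference of -0.64. With 1 pool each, the difference was not tested. With loess run per print block both ratios were below 0, at -0.52 in AtrxdE2+TMPyP4 and -0.027 in AtrxdE2, and the difference was -0.49.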

How the results depend on the processing

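No paired analysis was possible because each group is 1 array, and no replicate could be left out. Of 84 recomputed counts and medians of the 9 genes, the 9 without the filter on dim probes could not move by construction. Of the other 75, 55 stayed within 1.5 times the reported count or within 0.091 of the reported median. Some of these were fixed too. The stricter filter dropped Camk4 alone, which passed 1.2-fold in no reported comparison, so the counts could not change. The brightest-probe choice could change Calm2 alone. The tally therefore overstates how stable the counts were. Of 249 recomputed ratios of single genes 75 could not move, being bright probes under another filter or single probes under another probe choice, and of the other 174, 146 moved by less than 0.27, the SD of the WT difference between arrays. Median centring gave medians of 0.44 in AtrxdE2+TMPyP4, 0.30 in AtrxdE2 and 0.24 for the difference. With it 7 genes were higher and 0 lower in AtrxdE2+TMPyP4, against 29.2% and 22.8% of all named genes. In AtrxdE2 5 were higher, against 17.2%, and for the difference 1 was lower, against 18.4%. The local background gave medians of 0.25 in AtrxdE2+TMPyP4 and 0.19 for the difference. With it 1 gene was higher in AtrxdE2, against 8.42% of all named genes. This was Camk2d (0.49), while Camkk2 (0.25) and Camk2a (0.21) were below 1.2-fold. Using the local background turned the difference of Camk2a to 1.75. The reading around its WT spot on the AtrxdE2+TMPyP4 array was 1116, beside a signal above blank of 1117. Plain subtraction and an offset of 10 each gave 2 genes lower in AtrxdE2 (Camk4 and Calm2). The shares of all named genes were then 20.5% and 14.2%, against 8.08% as reported. By the authors' ratios, 1 gene was higher and 2 lower in AtrxdE2, against 16.9% and 21.6% of all named genes. For the difference 4 were higher and 1 lower, against 27.5% and 21.8%. The brightest probe per gene gave 2 lower in AtrxdE2+TMPyP4, against 5.24% of all named genes. Chosen after seeing the data, loess per print block gave 1 higher in AtrxdE2 and 1 lower for the difference, against 6.76% and 9.16%. The Cy3 channels set directly against each other, also chosen after seeing the data, gave a median of -0.16. They turned Camk2g to -0.24 and left Ppp3cb at 0.067. The cause of these shifts was not tested. Camkk2 and Ppp3cb stayed above WT on both arrays under the 6 alternatives that could change them (Camkk2 from 0.41 to 0.87 in AtrxdE2+TMPyP4 and from 0.25 to 0.61 in AtrxdE2, Ppp3cb from 0.29 to 0.98 and from 0.10 to 0.45), and Camk2b stayed below WT in AtrxdE2+TMPyP4, from -0.52 to -0.016. Camk4, the dimmest member, was not past the stricter filter.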
